A study of Mus musculus with 19 samples.

Results

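Oxidative phosphorylation genes of the nucleus were followed in the injured hindlimb of mice. A gene was a member if its symbol starts with Nduf, Uqcr, Cox4, Cox5, Cox6, Cox7, Cox8 or Atp5, or is Sdha, Sdhb, Sdhc or Sdhd, and if it held at least 100 UMIs (unique molecular identifiers, each standing for 1 captured RNA molecule) over all barcodes with at least 500 genes. Of 27998 genes in the tables, 92 matched the symbols and 90 were members. Just outside the threshold were Cox8c with 2 UMIs and Cox7b2 with 5. Just inside were Atp5s with 2203, Cox8b with 2538 and Cox7a1 with 3531. By symbol the members were 31 accessory subunits, 7 core subunits and 7 assembly factors of complex I, 4 subunits of complex II, 8 of complex III, 16 of complex IV and 17 of complex V. Ndufa4, which is now often counted with complex IV, and its relative Ndufa4l2 stayed with complex I because of their symbols. Atp5s and Atp5sl, which RefSeq names Dmac2l and Dmac2, stayed with complex V in the same way.

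The series holds 19 droplet libraries (10x, single cells) of mouse hindlimb tissue after a burn on the back and a cut through the Achilles tendon, an injury that is followed by bone formation in soft tissue. The groups were day 0 (4 libraries, 3561 cells), day 3 (3, 5795 cells), day 7 (4, 13414 cells), day 21 (4, 5345 cells) and p7N3, a CD47-activating peptide given before and after the injury, at day 7 (4, 11426 cells). The peptide dose was 10 mg/kg. The uninjured state of the first group is given in the study's text, whereas its labels list the burn too. The labels name C57 and LysmCre/Tgfb1fx/fx for the series without saying which library is which, and the study describes its time course in wild-type young adult male C57BL/6J mice. Nothing in the labels says how many mice a library pools, so p-values measure the spread between libraries, which may be technical.

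Oxidative phosphorylation moves electrons from NADH (complex I) and succinate (complex II) through complexes III and IV to oxygen, and complex V uses the proton gradient that complexes I, III and IV build to make ATP. All subunits of complex II and most of the others are encoded in the nucleus, while 13 genes of the mitochondrial genome (the mt- genes) encode core parts of complexes I, III, IV and V. Several subunits of complex IV come as a common form and a form of heart and skeletal muscle. Macrophages and fibroblasts are known to move between oxidative phosphorylation and glycolysis when they are activated.

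Promoters of some genes named below are shown first. Nuclear genes of this set are known targets of the factors NRF1, GABPA (of the ETS family) and YY1. RefSeq (GRCm38.p6) gave a promoter of 250 bases before the start for 75 of the 90 members. The letters searched on both strands were GCGCA and GCGC with any base between them for NRF1, CCGGAAG for ETS, AAGATGGCG for YY1 and GGGGCGGGG for a GC box, and none of the 4 contains another. NRF1 letters stood in 14 member promoters (18.7%), in 4.23% of 27025 promoters of all genes and in 8.77% of the 10411 promoters of genes tested in stromal cells. ETS letters stood in 17.3% of member promoters against 14.8% of those of tested genes, YY1 letters in 2.67% against 1.35%, and the GC box in 14.7% against 22.2%. At least 1 of the NRF1, ETS and YY1 matches was found in 33.3% of member promoters and in 22.8% of those of tested genes. The 5 stretches printed are the 120 bases before the start, 5′ to 3′ on the strand of the gene, with a match in capitals. Atp5g2 at chr15:102671048-102671167 (minus strand) holds NRF1 letters and Ndufa8 at chr2:36049339-36049458 (minus) a GC box and NRF1 letters. Ndufb7 at chr8:83566638-83566757 (plus) holds ETS letters. Atp5g1 at chr11:96075632-96075751 (minus) and Cox8b at chr7:140900447-140900566 (minus) hold none of the 4 in this window. The same window of Cox5a, Cox7a1, Ndufa6 and Sdhb, not printed, holds none of the 4 either. A match is a description of the letters, not a measured site.
Atp5g2: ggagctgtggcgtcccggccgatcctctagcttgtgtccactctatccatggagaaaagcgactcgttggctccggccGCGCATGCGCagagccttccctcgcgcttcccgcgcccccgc
Ndufa8: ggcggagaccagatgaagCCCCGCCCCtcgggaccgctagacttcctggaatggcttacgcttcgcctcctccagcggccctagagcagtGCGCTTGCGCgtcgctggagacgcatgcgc
Ndufb7: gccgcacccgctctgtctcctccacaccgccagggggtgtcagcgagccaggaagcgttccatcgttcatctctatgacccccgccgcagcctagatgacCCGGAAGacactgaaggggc
Atp5g1: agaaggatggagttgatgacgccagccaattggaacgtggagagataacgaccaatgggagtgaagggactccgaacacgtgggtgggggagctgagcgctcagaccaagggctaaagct
Cox8b: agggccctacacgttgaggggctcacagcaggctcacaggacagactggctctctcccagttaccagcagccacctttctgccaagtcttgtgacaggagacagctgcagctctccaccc

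The 3 cell types compared were named from their markers in clusters that were made without the members, and UMIs were summed per library and type. They were macrophage-like (14302 cells), stromal-like (13975, mesenchymal cells of connective tissue) and endothelial-like (3156) cells, called macrophages, stromal and endothelial cells here. All 19 libraries had at least 10 cells of each type, the fewest being 31 endothelial cells in each day 3 library and 69 macrophages in a day 0 library. Values are CPM (UMIs relative to the total of the library and type, scaled by TMM factors), and a member was called where the quasi-likelihood test of edgeR gave an adjusted p (Benjamini-Hochberg over all genes tested) under 0.05. After a filter on low counts 90 members were tested in macrophages, 90 in stromal cells and 86 in endothelial cells, where Cox4i2, Cox6a2, Cox6b2 and Cox7a1 did not pass. The droplet method counts UMIs at 1 end of the RNA, so levels of different genes are on a per-molecule scale.

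Depth moved with the groups. Day 0 libraries held 3019467 to 5383855 UMIs with a median of 3414 to 4693 per cell, and the others 11064153 to 39870492 with a median of 6534 to 12406. The cells within a type changed as well. The cluster that held most macrophages was cluster 16 at day 0 (72.1%), cluster 2 at day 3 (49.9%) and cluster 1 at day 7 (39.2%) and day 21 (31.3%). In stromal cells it was cluster 11 at day 0 (82.4%), cluster 17 at day 3 (90.3%) and cluster 0 at days 7 (31.7%) and 21 (62.6%). In endothelial cells it was cluster 10 at days 0 (92.4%) and 21 (50.2%) and cluster 9 at days 3 (83.9%) and 7 (77.4%). A change of RNA per cell and a change of the cells that make up a type cannot be told apart by these sums, and values within 1 cluster are given beside the counts they change. Replicate 4 of day 0, day 7, day 21 and the peptide carries another genome build in the submitters' notes (mm10) than the other 15 libraries (GRCh38), although all gene tables are of mouse.

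Across the 90 members, the level was higher at days 3 and 7 than at day 0 in all 3 types, and its mean was lower again at day 21. The mean log2(CPM + 1) over the members in macrophages was 6.53 to 6.74 in the day 0 libraries. It lay between 7.18 and 7.22 on day 3, between 7.30 and 7.40 on day 7, and between 6.97 and 7.20 on day 21. In stromal cells it was 6.79 to 6.94, 7.26 to 7.31, 7.10 to 7.24 and 6.93 to 7.18 in the same order. In endothelial cells it was 7.03 to 7.18, 7.36 to 7.49, 7.27 to 7.38 and 7.06 to 7.17. Every day 3 and day 7 library thus stood above every day 0 library of its type, and the day 21 and day 0 libraries overlapped in stromal and endothelial cells. The day 21 and day 7 libraries overlapped in stromal cells only. The peptide libraries, at 7.30 to 7.38, 7.16 to 7.28 and 7.28 to 7.31, overlapped those of day 7 in each type. Among the mm10 libraries alone the values at days 0, 7 and 21 were 6.67, 7.39 and 7.20 in macrophages, 6.90, 7.22 and 7.18 in stromal and 7.10, 7.32 and 7.16 in endothelial cells, with no day 3 library of that kind. The members took 1.78 to 2.01% of macrophage UMIs at day 0 and 2.46 to 2.77% at day 7. In stromal cells the share went from 1.80 to 1.94% at day 0 to 2.45 to 2.57% at day 3.

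**Figure D1:**
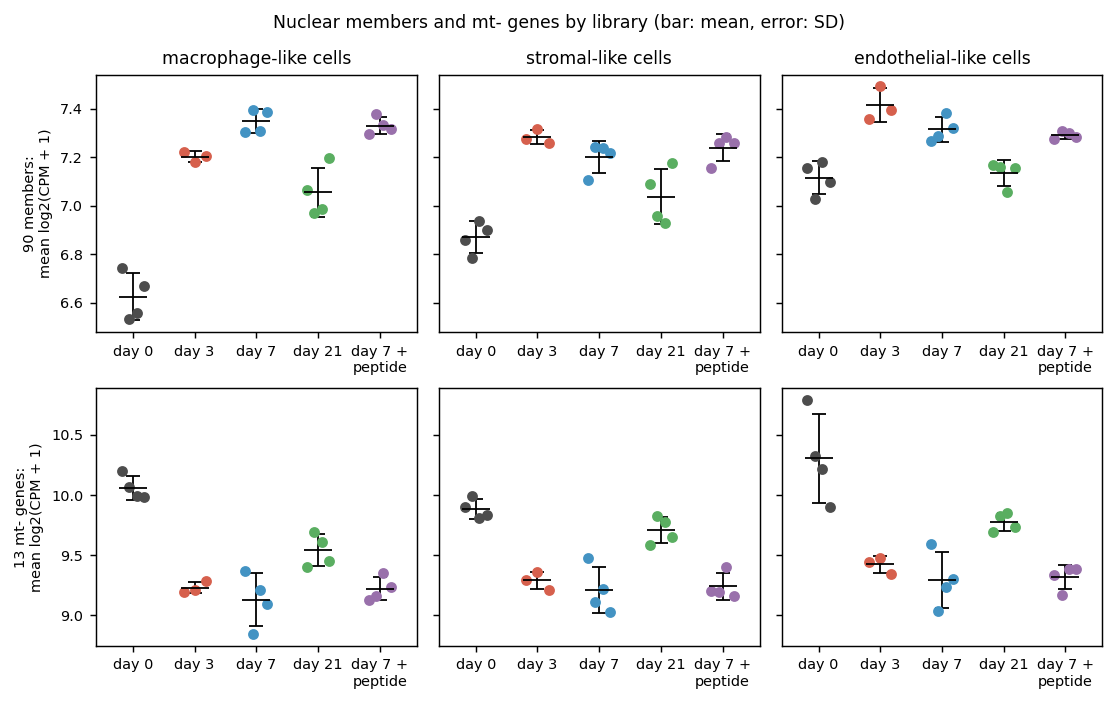
Mean log2(CPM + 1) of the members, with the mt- genes in separate panels, per library (points) by group in macrophage-like, stromal-like and endothelial-like cells; bars mark group means and errors the SD. The members' day 3 points sit above the day 0 points in each type, and the mt- genes' day 3 points sit below them.

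Between day 0 and day 3, members of all 5 complexes rose in each type. In macrophages 67 of 90 rose and 1 fell, where 20.8% of 11566 genes tested rose and 16.9% fell. In stromal cells 65 rose and 8 fell of 90, where 31.1% of 13999 genes rose and 30.6% fell. In endothelial cells 51 rose and 3 fell of 86, where 27.9% of 10151 genes rose and 27.2% fell. The median log2 fold change over the members was 0.59 in macrophages, 0.55 in stromal and 0.45 in endothelial cells, and over all genes tested 0.05 in macrophages and 0.01 in stromal cells. Members are abundant, and abundant genes pass more often. Among genes with a mean of at least 100 CPM, 60 of 65 members (92.3%) rose in macrophages against 56.6% of all such genes, 50 of 64 (78.1%) against 54.3% in stromal cells (where 4 fell, 6.25% against 29.5%) and 43 of 67 (64.2%) against 41.8% in endothelial cells. Of the 86 members tested in all 3 types, 43 (50%) rose in all 3, as did 12.3% of the 9478 genes tested in all 3. The 3 types come from the same libraries.

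Subunit c of complex V, which forms the rotating ring of the enzyme and is encoded by Atp5g1, Atp5g2 and Atp5g3 with the same mature protein, gave the largest rises in stromal and endothelial cells. In stromal cells Atp5g2 stood at 220, 209, 235 and 261 CPM in the day 0 libraries and at 654, 669 and 665 CPM at day 3, a log2 fold change of 1.52 (SE 0.10, edgeR adjusted p = 3.20e-10). Atp5g1 went from 243, 249, 257 and 256 CPM to 684, 677 and 676 CPM in the same cells (log2 fold change 1.43, SE 0.106, edgeR adjusted p = 1.25e-09). The groups stood far apart for both genes, with no overlap. In endothelial cells Atp5g1 rose from 182 ± 19.3 to 512 ± 36.5 CPM (SD, n = 4 and 3) and Atp5g2 from 292 ± 23.6 to 739 ± 91.2 CPM. In macrophages the same genes rose less, Atp5g1 from 198 ± 38.2 to 372 ± 14.2 CPM and Atp5g2 from 312 ± 16.5 to 471 ± 8.21 CPM. Atp5g3 rose in stromal cells (log2 fold change 0.75, edgeR adjusted p = 9.41e-08), while its log2 fold changes of 0.25 in macrophages and 0.20 in endothelial cells did not pass (adjusted p = 0.118 and 0.0576). The 3 genes and their processed copies share sequence, so reads that the counting could not place may have been lost from each of them.

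Most members of complex V rose, counting the genes of subunit c: 14 of its 17 genes in macrophages, 15 in stromal and 12 in endothelial cells. Atp5o, the stalk subunit that joins the catalytic head to the membrane part, was at 121, 124, 108 and 129 CPM in macrophages at day 0 and at 242, 239 and 237 CPM at day 3, without overlap (log2 fold change 0.99, SE 0.117, edgeR adjusted p = 5.40e-07). In endothelial cells Atp5j, another stalk subunit, fell from 862 ± 31.1 to 698 ± 24.3 CPM (log2 fold change -0.31, edgeR adjusted p = 0.00296), against the direction of its complex. Within endothelial cells of cluster 9 alone (28 at day 0 and 78 at day 3) the direction of Atp5j reversed.

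Of complex I, 27 of 31 accessory subunits rose in macrophages and none fell, 21 rose and 4 fell in stromal cells, and 14 rose and 1 fell in endothelial cells. The 1 that fell there was Ndufb10, which reversed its direction within endothelial cells of cluster 9 alone. Ndufa8, an accessory subunit on the intermembrane side, rose most of all members in macrophages. Its CPM were 88.5, 42.2, 78.9 and 66.0 at day 0 and 156, 155 and 157 at day 3 (log2 fold change 1.13, SE 0.136, edgeR adjusted p = 7.07e-07). The day 0 libraries spread widely and the day 3 libraries hardly at all, with no overlap. Ndufb5 and Ndufa10, also accessory subunits, rose by 0.99 each on the log2 scale in macrophages. Of the 7 core subunits, which carry the electron path, 4 rose in macrophages, 5 in stromal and 5 in endothelial cells, and Ndufs1 and Ndufs7 were called in none of the 3. Assembly factors (Ndufaf1 to Ndufaf7) help to build the complex, and 1 of 7 rose in macrophages, 5 in stromal and 2 in endothelial cells.

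The accessory subunits Ndufa6, Ndufs4, Ndufa13 and Ndufa1 went the other way in stromal cells. Ndufa6 stood at 263, 259, 269 and 266 CPM at day 0 and at 189, 211 and 186 CPM at day 3 (log2 fold change -0.44, SE 0.0715, edgeR adjusted p = 2.57e-05). Ndufs4, a subunit that joins late in the assembly of complex I, fell from 126 ± 12.4 to 101 ± 2.59 CPM, and Ndufa13 from 448 ± 18.8 to 354 ± 24.9 CPM, each with no overlap between the groups. In macrophages the same 3 genes rose, Ndufa6 from 251 ± 37.7 to 363 ± 6.75 CPM, Ndufs4 from 61.9 ± 13.7 to 99.7 ± 10.6 CPM and Ndufa13 from 305 ± 35.6 to 364 ± 5.12 CPM. In endothelial cells none of the 3 was called.

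In complex II the catalytic flavoprotein Sdha stood apart from its partners. Sdha was at 81.3, 87.4, 73.1 and 88.0 CPM in macrophages at day 0 and at 82.1, 86.1 and 86.9 CPM at day 3, and its log2 fold changes of 0.05, 0.11 and 0.15 in macrophages, stromal and endothelial cells did not pass (edgeR adjusted p = 0.795, 0.377 and 0.292). The iron-sulfur subunit Sdhb was at 104, 136, 105 and 104 CPM in macrophages at day 0 and at 216, 189 and 220 CPM at day 3 (log2 fold change 0.90, SE 0.113, adjusted p = 1.31e-06). Sdhb, Sdhc and Sdhd, the last pair being the membrane anchors, rose in all 3 types, by 0.31 to 0.90 on the log2 scale. The difference between Sdha and its partners was not tested.

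Of complex III, 7 of 8 members rose in macrophages, 6 in stromal and 7 in endothelial cells. Uqcrq, a small subunit, was at 236, 237, 264 and 252 CPM in stromal cells at day 0 and at 606, 615 and 610 CPM at day 3 (log2 fold change 1.302, SE 0.0825, edgeR adjusted p = 1.78e-10). Uqcrfs1, the Rieske iron-sulfur protein, rose from 100.1 ± 21.6 to 220 ± 10.4 CPM in endothelial cells.

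Of the 16 members of complex IV, 11 rose in macrophages and 10 in stromal cells, and 8 of the 12 tested rose in endothelial cells. Cox5a was at 144, 142, 142 and 143 CPM in the stromal cells of day 0 and at 365, 344 and 374 CPM at day 3 (log2 fold change 1.34, SE 0.115, edgeR adjusted p = 7.58e-09). Cox4i1, the common form of the subunit that is thought to regulate the complex, rose from 916 ± 108 to 1398 ± 41.0 CPM in macrophages. Cox7a2l, a relative of Cox7a2 that takes part in joining complexes III and IV, rose in macrophages (343 ± 45.5 to 476 ± 19.4 CPM), while its changes of -0.19 in stromal and 0.18 in endothelial cells on the log2 scale did not pass (adjusted p = 0.129 and 0.265).

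Cox8b, the muscle form of subunit VIII, fell in all 3 types. Stromal cells held 28.7, 7.01, 15.8 and 3.45 CPM at day 0 and 0, 0.576 and 0 CPM at day 3. As pooled UMIs these were 108 at day 0 and 7 at day 3, 72.6 times as many relative to the totals (95% exact binomial interval 34.1 to 185, counting error only). Macrophages had 16 UMIs at day 0 and 3 at day 3, a ratio of 141 (40.4 to 756). Endothelial cells had 46 at day 0 and 0 at day 3, at least 9.63-fold higher against a floor of 3 UMIs over the group, and the exact interval of the ratio, which also counts the error of the 46 UMIs, begins at 7.52. Cox7a1 (log2 fold change -1.80), another muscle form, and the isoforms Cox4i2 (-2.25) and Cox6b2 (-1.49) fell in stromal cells as well, all from means under 10 CPM. In macrophages the pooled ratio of day 0 to day 3 was 1.24 (0.788 to 1.87) for Cox7a1 and 1.04 (0.211 to 3.17) for Cox4i2. In endothelial cells these ratios were 9.11 (2.30 to 78.8) and 1.26 (0.623 to 2.66). RNA of muscle fibres was lower at day 3 in all 3 types. Its 15 marker genes summed to 192 to 287 CPM in stromal cells at day 0 and 88.8 to 135 at day 3. In macrophages they summed to 257 to 493 CPM and then 20.4 to 42.8 CPM, and in endothelial cells to 243 to 769 and 14.1 to 38.3 CPM. Of these markers Myh2 was at 0 in the stromal cells and macrophages of day 0, and Myh1, Myh2, Myh4 and Pvalb in the endothelial cells of day 3. In a day 0 library that was deposited with all its barcodes, those with 1 to 50 UMIs, which are mostly empty droplets, held 157 CPM of Cox8b and gave 1.87% of their UMIs to the members. The part of muscle RNA in these changes was not tested.

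**Figure D2:**
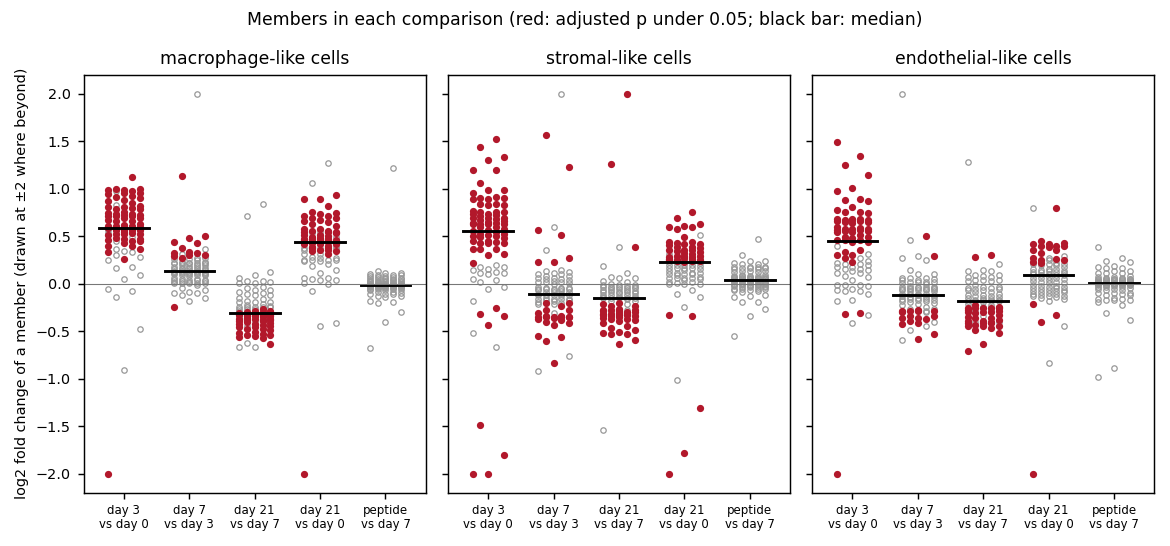
Log2 fold change of each member (1 point a member, drawn at ±2 where beyond) in the 4 comparisons over time and with the peptide, in the 3 cell types; red points had an adjusted p under 0.05, grey ones did not, and black bars are medians. The medians for day 3 against day 0 are 0.59, 0.55 and 0.45, those for day 21 against day 7 lie below 0, and no peptide point is red.

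Markers of other cells moved with day 3 too. The 23 macrophage markers summed to 220 to 351 CPM in stromal cells at day 0 and 2476 to 2641 CPM at day 3, and to 324 to 584 and 2069 to 2496 CPM in endothelial cells, against 34079 to 41712 CPM in the macrophages of day 0. The 6 erythrocyte markers summed to 8846 to 15437 CPM in endothelial cells at day 0 and 338 to 8811 CPM at day 3. Their part in the members' change was not tested. Some of these counts rested on which cells were compared and on the depth. In cells of cluster 16 alone, which both days held (279 macrophages at day 0 and 43 at day 3 in 2 libraries), the median over the members was 0.84, and 58 of the 68 calls were kept. In stromal cells of cluster 0 alone (166 at day 0 and 38 at day 3) 17 members were called, with a median of 0.37. In endothelial cells of cluster 9 alone (28 and 78) 25 were called. With the sums of all macrophage libraries thinned to the lowest total, 32 of 75 members tested rose and none fell. The shares of all genes called within 1 cluster and with thinned sums are not given here or below. These counts therefore have no background to be read against. Without scaling factors the medians over the members were 0.36, 0.40 and 0.37 in macrophages, stromal and endothelial cells and those over all genes -0.18, -0.13 and -0.09. The calls that held under every alternative, cells of 1 cluster included, and with every library left out were 32 of 68 in macrophages, 16 of 73 in stromal cells and 23 of 54 in endothelial cells. With the comparison within 1 cluster set aside they were 32, 60 and 45.

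The change from day 0 to day 3 differed between macrophages and stromal cells for 24 of 88 members (limma voom with the library as a random block, adjusted p under 0.05). It was higher in macrophages for 13, where 12.1% of 11226 genes were, and lower for 11, where 22.3% were. The split between the directions moved with the libraries and the cells used. The median difference over all genes was -0.16, and without day 0 replicate 1 it was 0.06 with 34 members higher and 2 lower, while without day 0 replicate 2 the split was 31 and 2. It was 24 and 4 with cells of at most 10% mt- UMIs and 34 and 3 with each group clustered by itself. Without scaling factors it was 12 and 11. The split over all genes moved too. It was 1356 higher and 2506 lower in the main fit. Without day 0 replicate 1 it was 1944 and 1909, and without day 0 replicate 2 it was 1984 and 1852. With cells of at most 10% mt- UMIs it was 1972 and 1916. With each group clustered by itself it was 1898 and 2106, and without scaling factors 1207 and 2680. Under all 13 alternatives 7 members kept their call. They were the accessory subunits Ndufs4 (0.93, SE 0.19, adjusted p = 0.00108), Ndufa6 (0.91), Ndufa1 (0.83), Ndufv3 (0.68) and Ndufa13 (0.58) and Uqcrb of complex III (0.57), all higher in macrophages, and Atp5g2 (-0.96), which rose more in stromal cells. Of those that rose more in stromal cells, Atp5g1 (-0.54) kept its call under 10 alternatives, Cox5a (-0.44) under 6 and Uqcrq (-0.36) under 3.

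From day 3 to day 7 fewer members were called, and whether the types differed over these days was not tested. In macrophages 13 members rose and 1 fell of 90, where 14% of all genes rose and 14.4% fell. Among the genes of at least 100 CPM, 10 of 67 members (14.9%) rose against 14.7% of all such genes. Ndufa5, an accessory subunit of complex I, was at 124, 130 and 127 CPM at day 3 and at 168, 174, 186 and 191 CPM at day 7 (log2 fold change 0.50, SE 0.098, edgeR adjusted p = 0.000496). Ndufa9 (0.48), Ndufc2 (0.44) and Ndufa12 (0.43), of the same complex, rose too, and Atp5a1, a catalytic subunit of complex V, fell by 0.25 on the log2 scale. In macrophages of cluster 2 alone the median over the members was -0.15 instead of 0.13, with 1 member higher and 7 lower. Leaving out day 3 replicate 3 left 6 calls, and leaving out day 3 replicate 1 or day 7 replicate 4 left 8 or 9.

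In stromal cells 7 members rose and 24 fell from day 3 to day 7, where 24.5% of all genes rose and 22.9% fell. Among the genes of at least 100 CPM, 20 of 70 members (28.6%) fell against 36.7% of all such genes. Atp5g3 was at 355, 346 and 360 CPM at day 3 and at 233, 220, 218 and 256 CPM at day 7 (log2 fold change -0.61, SE 0.0758, edgeR adjusted p = 3.30e-06), and Atp5g2 fell by 0.55 on the log2 scale. The assembly factors Ndufaf4 (-0.83) and Ndufaf6 (-0.56) fell and Ndufaf1 (0.51) rose. Ndufa13, which had fallen by day 3, rose from 354 ± 24.9 to 523 ± 44.3 CPM. Ndufa4l2, a relative of Ndufa4 that low oxygen is known to induce, was at 73.9, 85.3 and 37.7 CPM at day 3 and at 86.2, 218, 110 and 203 CPM at day 7 (log2 fold change 1.23, SE 0.328, adjusted p = 0.00468). Its day 7 libraries spread widely, and the lowest stood just above the highest of day 3. The summed level of 12 pericyte and smooth muscle markers in stromal cells, all 12 detected on both days, moved with it, from 154 to 242 CPM at day 3 to 1251 to 2411 CPM at day 7, and its part in the change was not tested. Within stromal cells of cluster 17 alone 7 members were called between these days, with a median of -0.02.

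In endothelial cells 2 members rose and 16 fell from day 3 to day 7 of 86, where 6.95% of all genes rose and 8.37% fell. Among the genes of at least 100 CPM, 16 of 72 members (22.2%) fell against 20.4% of all such genes. Atp5g1 was at 506, 479 and 551 CPM at day 3 and at 276, 350, 418 and 319 CPM at day 7 (log2 fold change -0.59, SE 0.136, edgeR adjusted p = 0.00534). Atp5k of complex V (-0.53) and the accessory subunits Ndufa5 (-0.43) and Ndufb2 (-0.41) fell as well, and Uqcrh of complex III (0.29) rose. Leaving out day 3 replicate 3 left 8 calls. Day 3 had 31 endothelial cells per library.

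From day 7 to day 21 members fell in all 3 types. In macrophages 45 of 90 fell and none rose, where 8.52% of all genes fell and 7.22% rose. In stromal cells 37 fell and 3 rose, where 18.3% of all genes fell and 18.5% rose. In endothelial cells 33 fell and 2 rose of 86, where 15.2% of all genes fell and 17% rose. The medians over the members were -0.31, -0.16 and -0.18 on the log2 scale. Among genes of at least 100 CPM, 42 of 67 members (62.7%) fell in macrophages against 28% of all such genes, 32 of 68 (47.1%) against 34.1% in stromal cells and 31 of 72 (43.1%) against 28.3% in endothelial cells. In all 3 types 17 members fell, 19.8% of those tested in all 3, as did 3.17% of all genes, among them Atp5g1, Atp5o, Cox5a, Sdhb and Uqcrc1.

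Ndufb7, an accessory subunit of complex I, fell most among the named members of macrophages. It was at 314, 361, 327 and 357 CPM at day 7 and at 209, 195, 213 and 255 CPM at day 21, with no overlap (log2 fold change -0.64, SE 0.0887, edgeR adjusted p = 5.36e-05). Ndufab1, the acyl carrier protein of complex I (-0.58), Cox6b1 of complex IV (-0.56) and Ndufb8 (-0.56) fell beside it. By complex, 22 of 31 accessory subunits of complex I, 7 of 8 members of complex III, 8 of 16 of complex IV and 6 of 17 of complex V fell in macrophages. With thinned sums 10 members fell, within cluster 1 alone 22 fell, and without day 21 replicate 2 the count was 28.

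In stromal cells the catalytic subunit Atp5b fell from 508 ± 58.4 to 326 ± 58.8 CPM (log2 fold change -0.64, SE 0.115, edgeR adjusted p = 0.000286). Atp5g1 was at 444, 593, 543 and 552 CPM at day 7 and at 375, 304, 319 and 408 CPM at day 21 (log2 fold change -0.60), and Atp5o (-0.53) and the core protein Uqcrc1 of complex III (-0.53) fell too. Ndufa6 rose again, from 201, 183, 190 and 178 CPM to 249, 244, 252 and 236 CPM (log2 fold change 0.39, SE 0.0642, adjusted p = 0.000139), close to its day 0 values. Within stromal cells of cluster 0 alone 7 members were called, with a median of -0.05. In endothelial cells Uqcrfs1 fell from 210 ± 16.4 to 127 ± 15.2 CPM (log2 fold change -0.71, SE 0.117, adjusted p = 0.000106), and Ndufa10, Sdhd and Ndufb5 had log2 fold changes of -0.52, -0.47 and -0.45. Ndufa5 rose there (0.30).

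By day 21 the levels had not all returned to those of day 0. In macrophages 54 of 90 members stood higher than at day 0 and 1 lower, where 12% of all genes were higher and 8.49% lower. In stromal cells 39 were higher and 5 lower (20.6% and 15.6% of all genes), and in endothelial cells 18 higher and 4 lower of 86 (15.3% and 14.2%). The medians over the members were 0.43, 0.23 and 0.09. Among genes of at least 100 CPM the members' share higher was 79.4% against 42.3% in macrophages, 49.2% against 41.8% in stromal and 22.7% against 24% in endothelial cells. Cox7b of complex IV rose from 157 ± 22.5 to 300 ± 27.1 CPM in macrophages (log2 fold change 0.93, SE 0.110, edgeR adjusted p = 2.97e-06), and Sdhb, Ndufa8 and Ndufb5 by 0.82 to 0.89. Atp5g2 stood higher at day 21 in stromal cells (231 ± 22.6 to 373 ± 38.3 CPM, 0.69) and in endothelial cells (292 ± 23.6 to 504 ± 49.6 CPM, 0.79). Ndufs4 (-0.34) and the core subunit Ndufs7 (-0.34) were lower in stromal cells. Within stromal cells of cluster 11 alone no member was called and the median was 0.05. Within 1 cluster 7 were called in macrophages and 7 in endothelial cells, and without day 21 replicate 4 the count in stromal cells was 23.

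The CD47-activating peptide left no member called against day 7 in any type, by edgeR or by DESeq2. The day 7 libraries of the time course served as the control here, whereas the study compared the peptide with mice given PBS. Vehicle was not used as a factor. At an unadjusted p under 0.05 there were 2 of 90 members in macrophages, 8 of 90 in stromal and 4 of 86 in endothelial cells. The share of all genes at that unadjusted threshold is not given, so these counts have no background to be read against. At the adjusted threshold, 0.0173% of all genes were higher and 0% lower in macrophages, 0.157% and 0.143% in stromal cells, and 0% and 0% in endothelial cells. The medians over the members were -0.02, 0.04 and 0.01. Atp5g1 in macrophages, for example, was at 368, 425, 364 and 448 CPM at day 7 and at 378, 420, 381 and 394 CPM with the peptide, the groups overlapping. In simulated data for this comparison, 42.9%, 50% and 35.7% of 1.5-fold changes of randomly chosen genes were called in macrophages, stromal and endothelial cells. Small changes could thus be missed, but these rates are for genes of all levels. The members are abundant, and no rate was simulated for them alone. Where each group was clustered by itself, 10 members were called in stromal cells, 8 of them higher with the peptide. The share of all genes called under that setting is not given. It also changed the cells compared: day 7 libraries then held 629 to 1125 stromal cells instead of 1094 to 1834. Peptide libraries held 865 to 1381 instead of 869 to 1365. Replicate 4 of the peptide has no day in its labels.

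**Figure D3:**
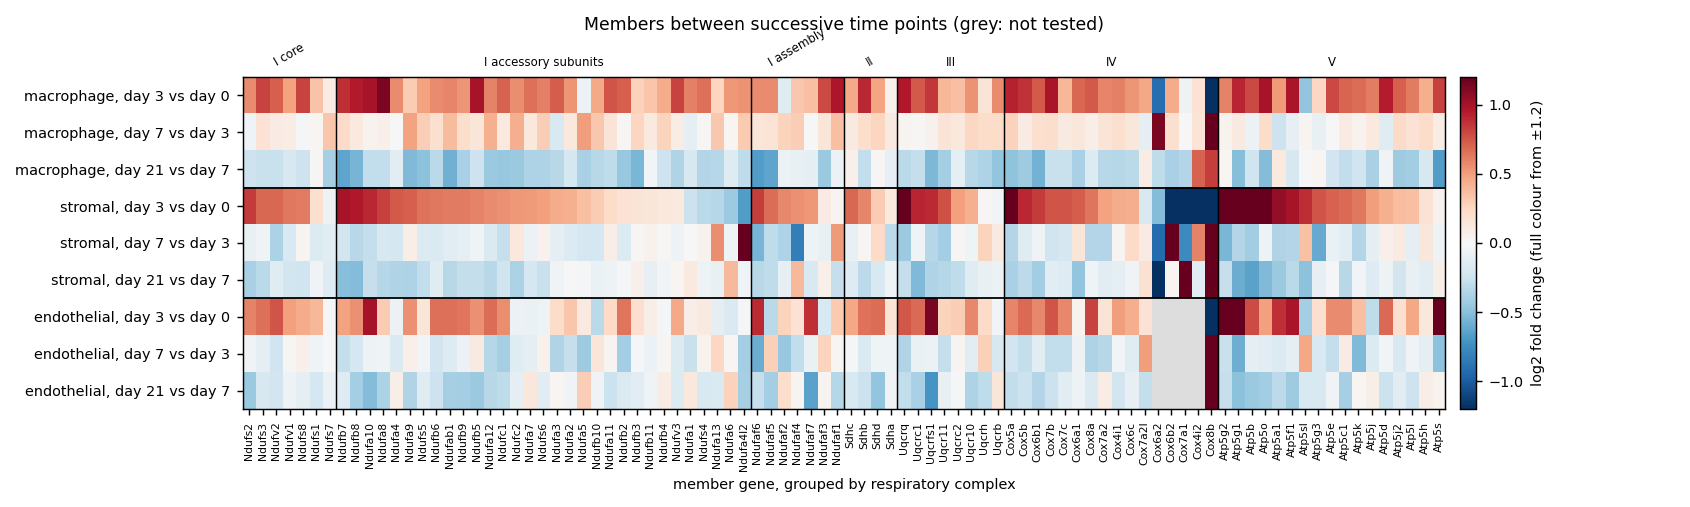
Log2 fold change of each member (columns, grouped by complex) between successive time points (3 lines for each cell type); the colour scale is in log2 units, full from ±1.2, and grey marks members that were not tested. Red fills most of the lines of day 3 against day 0 and blue most of those of day 21 against day 7, with Cox8b in the opposite colours.

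Between types of the same day 7 libraries, most members stood higher in macrophages after TMM scaling across the types compared. By plain library totals the types lay closer, and the mean of endothelial cells was above that of macrophages. The mean log2(CPM + 1) over the members was then 7.26 in macrophages, 7.20 in stromal and 7.33 in endothelial cells. As a share of UMIs the members took a mean of 2.63, 2.43 and 2.65% in the same order. The values that follow are scaled. Against macrophages 63 of 90 members were lower and 4 higher in stromal cells, where 37.4% of 12995 genes were lower and 41.2% higher, with a median of -0.40. In endothelial cells 63 of 88 were lower and 8 higher, where 33.8% of 11195 genes were lower and 34.8% higher, with a median of -0.46. Endothelial against stromal cells gave 20 higher and 30 lower of 89 (28.1% and 31.9% of 12831 genes). All 4 members of complex II and all 8 of complex III were lower in stromal cells than in macrophages. Cox5a was at 251 ± 19.6 CPM in stromal cells and 587 ± 35.4 in macrophages (log2 fold change -1.23, SE 0.0653, edgeR adjusted p = 4.18e-09) and Ndufa6 at 167 ± 11.4 and 391 ± 22.8 (-1.23), each lower in 4 of 4 libraries. The members higher in stromal cells were Ndufa4l2 and the assembly factors Ndufaf1, Ndufaf2 and Ndufaf7, the last 3 by 0.24 to 0.48 on the log2 scale. Ndufa8 went against its complex: it was higher in endothelial cells than in macrophages (345 ± 7.18 against 186 ± 11.1 CPM, log2 fold change 0.89, adjusted p = 7.37e-08) and than in stromal cells (1.04), in 4 of 4 libraries each. Among the isoforms, stromal cells differed from macrophages by 4.13 in Ndufa4l2, -3.38 in Cox6a2, -3.32 in Cox7a1 and -0.68 in Cox6b2 on the log2 scale, while the differences of -0.63 in Cox4i2 and 0.63 in Cox8b did not pass (adjusted p = 0.110 and 0.169).

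Some isoforms stood at very different levels in the cell classes. The values in this paragraph are CPM by plain library totals over all classes of at least 10 cells, with the number of libraries. Ndufa4l2 was at 860 ± 154 CPM in pericyte and smooth muscle-like cells (SD, n = 19), 265 ± 122 in tenocyte-like cells (n = 11), 123 ± 47.0 in stromal, 12.8 ± 8.85 in endothelial cells and 5.89 ± 2.33 in macrophages (n = 19 each). It was higher in pericyte and smooth muscle-like than in stromal cells in 19 of 19 libraries, and higher in stromal cells than in macrophages in 19 of 19. Cox4i2, the form of Cox4 known from lung and from low oxygen, was at 299 ± 80.8 CPM in pericyte and smooth muscle-like cells and at most at a mean of 7.50 in the other classes. Cox6a2, known as a form of heart and skeletal muscle, was at 1758 ± 522 CPM in muscle fibre-like cells (n = 3) and at 1551 ± 226 CPM in plasmacytoid dendritic-like cells (n = 8). In those 8 libraries it was at 1346 to 1991 CPM, against 0.688 to 32.7 CPM in dendritic-like cells of the same libraries, higher in 8 of 8. Cox8b was at 1392 CPM and Cox7a1 at 560 CPM in muscle fibre-like cells, while plasmacytoid dendritic-like cells held 0 UMIs of Cox8b and 1 of Cox7a1. Cox7a1 was low but present in macrophages, 6.33 to 20.4 CPM, and stood above stromal cells in 18 of 19 libraries. At these low levels free RNA in the droplets adds UMIs to every class, and its part was not tested.

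**Figure D4:**
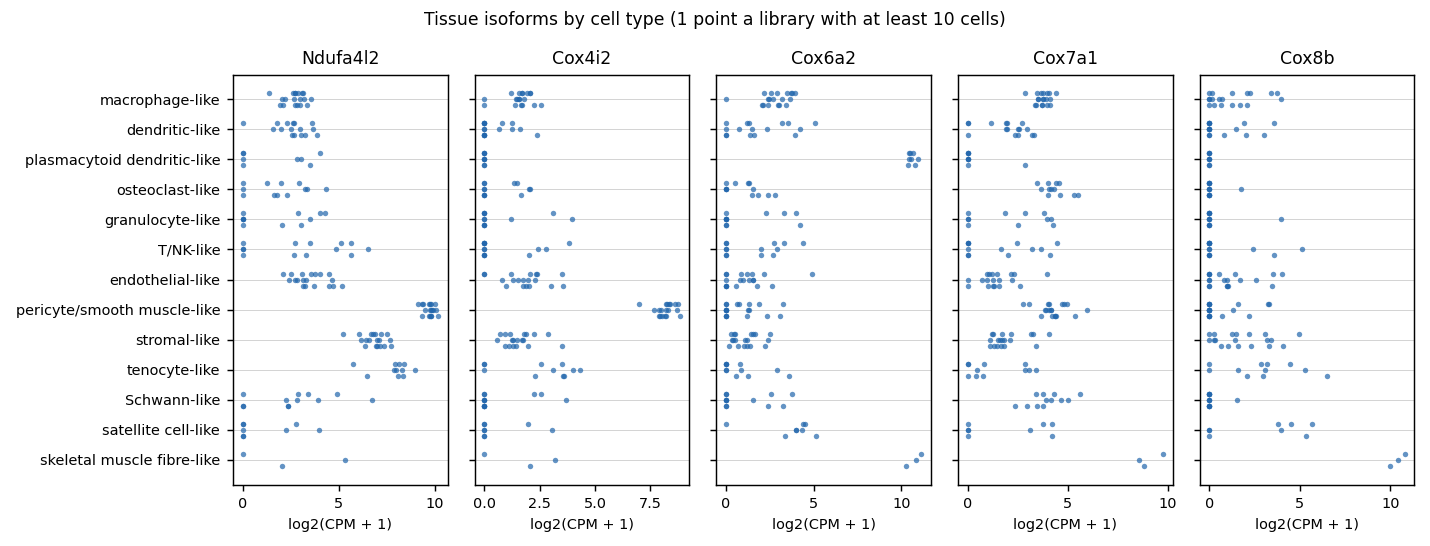
Level of the isoforms Ndufa4l2, Cox4i2, Cox6a2, Cox7a1 and Cox8b as log2(CPM + 1) in each cell class, 1 point a library with at least 10 cells of the class. Ndufa4l2 and Cox4i2 are highest in pericyte/smooth muscle-like cells, and Cox6a2 in muscle fibre-like and plasmacytoid dendritic-like cells.

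From day 0 to day 3 the mt- genes went the other way from most nuclear members. All 13 fell in macrophages, 10 in stromal and 12 in endothelial cells, and none rose, with medians of -0.69, -0.54 and -0.97 on the log2 scale. Of all genes of at least 100 CPM, 17.4%, 29.5% and 37.1% fell in the same order. In endothelial cells day 0 replicate 1, the library deposited with all its barcodes, stood above the other day 0 libraries in most mt- genes. There mt-Nd1 was at 7489, 4359, 4354 and 3578 CPM at day 0 and at 3711, 3783 and 3262 CPM at day 3, the groups overlapping. With a limit of 10% mt- UMIs per cell, day 0 replicate 1 held 205 endothelial cells instead of 267. The other day 0 libraries then held 201, 279 and 264 instead of 208, 288 and 268. How much of the endothelial median rests on replicate 1 was not tested. The mt- genes did not fall alike. mt-Nd2, a core subunit of complex I, was at 1341, 1310, 1353 and 1380 CPM in macrophages at day 0 and at 460, 496 and 487 CPM at day 3 (log2 fold change -1.48, SE 0.126, edgeR adjusted p = 4.07e-09), and it fell by 1.33 in stromal and 1.73 in endothelial cells. mt-Atp6, the membrane subunit of complex V, was at 8297, 7534, 7642 and 7199 CPM in macrophages at day 0 and at 6632, 6301 and 6638 CPM at day 3 (-0.23, adjusted p = 0.0275), with -0.05 and -0.13 in stromal and endothelial cells that did not pass (adjusted p = 0.593 and 0.436). From day 7 to day 21 mt-Nd2 rose by 1.13, 1.29 and 1.32 and mt-Nd3 by 1.57, 1.45 and 1.64 in the 3 types. In that comparison 5 mt- genes rose and 2 fell in macrophages, 8 rose in stromal and 5 in endothelial cells. Of all genes of at least 100 CPM, 11.2% rose and 28% fell in macrophages, 19.1% rose in stromal and 25.8% in endothelial cells. The mt- genes did not move as 1 group between day 3 and day 7. In that comparison mt-Co1 and mt-Co3, core subunits of complex IV, rose in all 3 types, mt-Co1 by 0.37, 0.75 and 0.70 and mt-Co3 by 0.32, 0.48 and 0.48 on the log2 scale, and mt-Nd3 of complex I fell by 0.72, 0.93 and 0.93. In macrophages 13 members rose over these days as well. Among genes of at least 100 CPM, 14.9% of members rose there against 14.7% of all such genes. At day 21 against day 0, 10 mt- genes were lower in macrophages and 10 in endothelial cells, and none was higher, with medians of -0.49 and -0.66. Of all genes of at least 100 CPM, 16.6% and 27.7% were lower in these 2 types. In stromal cells only mt-Nd5 was called (-0.34, edgeR adjusted p = 0.0199), and the median was -0.13.

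As a share of all UMIs the mt- genes took 4.44 ± 0.147% in macrophages at day 0 and 2.65 ± 0.0153% at day 3 (SD, n = 4 and 3), 3.47 ± 0.238 and 2.44 ± 0.169% in stromal and 4.24 ± 1.25 and 2.73 ± 0.176% in endothelial cells. By exact two-sided permutation tests over libraries, none of 15 comparisons of this share had an adjusted p under 0.05 (lowest 0.0857, over the 15), and 3 against 4 libraries cannot give a p below 0.0286. In macrophages and stromal cells the day 0 and day 3 libraries did not overlap. Empty-droplet barcodes of the day 0 library named above gave 28.4% of their UMIs to mt- genes, and the cells had been limited to 25%. The part of free RNA and of damaged cells in the day 0 level was not tested. With the mt- genes taken out of the totals, the counts of members called stayed within 1.5 times of those given.

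Other genes of energy metabolism were followed in lists made with earlier results known. By day 3, 20.8%, 31.1% and 27.9% of all genes tested rose in macrophages, stromal and endothelial cells, and 16.9%, 30.6% and 27.2% fell. Of the 18 glycolysis genes 13 rose and 1 fell in macrophages and 13 rose and 2 fell in stromal cells, and 12 of 17 rose in endothelial cells, with medians of 1.62, 1.68 and 1.13 on the log2 scale. Pgk1, a glycolytic kinase, went from 18.6 ± 4.39 to 142 ± 43.4 CPM in macrophages (log2 fold change 2.86) and Slc16a3, which exports lactate, from 1.29 ± 0.341 to 79.0 ± 22.3 CPM in stromal cells (5.85). Of the 16 genes of the TCA cycle 7, 12 and 10 rose in macrophages, stromal and endothelial cells and none fell, with Mdh2 from 100.3 to 294 CPM in stromal cells (log2 fold change 1.55). Of the mitochondrial ribosome 47 of 76 genes, 65 of 77 and 58 of 76 rose. Hif1a, the oxygen-sensitive factor that drives glycolytic genes, rose by 2.40, 2.52 and 1.89 on the log2 scale. Of the 18, 19 and 15 tested regulators of mitochondrial genes, among them Hif1a, 2, 5 and 3 rose and 2, 4 and 2 fell. In a list this small the distance from the shares over all genes rests on few genes and was not tested. By day 21 against day 7, 28, 38 and 39 genes of the mitochondrial ribosome fell and none rose, where 8.52%, 18.3% and 15.2% of all genes fell. Genes of the cytosolic ribosome, taken by the symbols Rpl and Rps without the S6 kinases, Rps19bp1 and pseudogenes (27 of 113 symbols, left out after their calls were seen), rose by day 3 in 52 of 85, 81 of 85 and 81 of 83. With those symbols the counts were 55 of 108, 86 of 108 and 86 of 104. Ribosome genes are abundant, and of all genes of at least 100 CPM 56.6%, 54.3% and 41.8% rose.

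**Figure D5:**
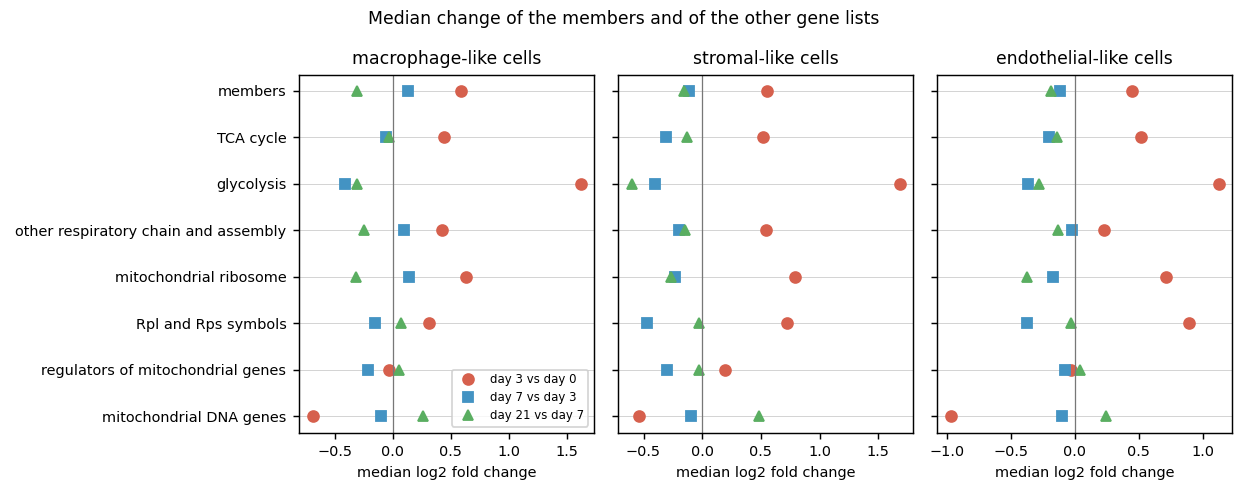
Median log2 fold change (horizontal axis) of the members and of the other gene lists (vertical axis) for day 3 against day 0 (circles), day 7 against day 3 (squares) and day 21 against day 7 (triangles) in the 3 cell types; the line of Rpl and Rps symbols includes the S6 kinases and pseudogenes. For day 3 against day 0 glycolysis lies furthest to the right, the members above 0 and the mt- genes below 0.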

How the data were processed

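Single-cell libraries of hindlimb tissue (19, in 5 groups taken from the labels) were taken up from the 10x matrices that the authors deposited, which hold raw UMI counts. Per the submitters' notes, which give no versions, they were made with Cell Ranger and Seurat on GRCh38 for 15 libraries and mm10 for 4, although the gene tables are of mouse and the study's methods name mm10 alone. Cell Ranger keeps reads that map to 1 gene, so near-identical copies can lose reads. No column of per-sample values was left unused (0).

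A barcode was kept as a cell with 500 genes or more and with no more than 25% of its UMIs from mt- genes (39541 cells), and no doublet caller was run. Cells were clustered with Leiden (leidenalg 0.10.2, igraph 0.11.9, scikit-learn 1.9.0) on 2000 variable genes without the members, mt- genes, the related lists and ribosomal genes (30 components, 20 neighbours, resolution 0.8), and clusters were named from marker lists. Counts were summed per library and type of at least 10 cells. At most 22 barcodes were shared by a pair of libraries, 0.76 to 0.87% of the smaller, where 14.4 were expected from random draws, and no replicates were counted as 1 (lowest chi-square per degree of freedom 1.79). Totals per library were 280176 to 14890094 UMIs in macrophages, 874135 to 25949156 in stromal and 835912 to 3161908 in endothelial cells. Intervals and floors cover counting error only.

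The quasi-likelihood test of edgeR 4.0.16 (R 4.3.3, filterByExpr, TMM) was fitted per type over all 5 groups, with Benjamini-Hochberg adjustment over all genes tested and a threshold of 0.05. SE is the log2 fold change divided by the root of its F. Types of the same libraries were compared in the same way with the library as a block at day 7, and the difference of changes with limma 3.58.1. The share of mt- UMIs was compared by exact permutation tests (scipy 1.17.1). The steps were tested on simulated data, with changes given to randomly chosen genes of all levels. For day 3 against day 0 in macrophages, 34.7% of 2-fold and 8.16% of 1.5-fold changes were called. For the difference between types, simulated with the same fixed spread for every gene, these were 20.8% and 0%. Over genes of all levels, changes of this size were thus often missed. The members are abundant, and no rate was simulated for them alone. Alternatives were DESeq2 1.42.0, other scaling, no filter, other cells, thinned sums, a replicate block and leaving out each library. Same-numbered libraries did not deviate together in every pair (correlations -0.17 to 0.30), so the numbers were not taken as pairs.

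Named members were up to 4 per direction and comparison with the largest change among those called, not overlapping between groups and reaching a mean of 10 CPM, plus isoform pairs, complex II and the mt- genes, and up to 2 per direction of each related list. Atp5j, Ndufa1, Uqcrb, Ndufv3 and others outside this rule were named after their values were seen. The members and lists were chosen with earlier results of these data known.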

Additional observations from a re-analysis of the deposited data

Results flagged for a closer look

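Of 113 groups of 4 libraries looked at, 5 held a library that stood far from the other 3 by Dixon's criterion, which chance gives for about 1 in 20 groups. In endothelial cells day 21 replicate 3 had the lowest mean log2(CPM + 1) of the members, 7.06. In macrophages Ndufc2 was highest in day 7 replicate 2 (358 CPM) and Sdhb highest in day 0 replicate 2 (136 CPM). In stromal cells Ndufaf6 was lowest in day 7 replicate 1 (7.14 CPM). In endothelial cells Uqcrfs1 was lowest in day 0 replicate 2 (68.0 CPM).

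The change from day 0 to day 3 differed between macrophages and stromal cells for 24 members by the limma test of the difference. Among the named members, the log2 difference (macrophages minus stromal cells) was 0.93 for Ndufs4, 0.91 for Ndufa6 and 0.58 for Ndufa13, whose levels rose in macrophages and fell in stromal cells. It was -0.96 for Atp5g2, -0.54 for Atp5g1, -0.44 for Cox5a and -0.36 for Uqcrq, which rose in both. How these 24 split by direction moved with single libraries and with the cells used, and the split over all genes moved too.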

How the results depend on the processing

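Of the counts of members called, 174 of 204 stayed within 1.5 times of the reported value under another setting, and 123 of 133 with a library left out. Of the medians over the members, 131 of 156 and 110 of 114 moved by less than the spread between libraries. No comparison of the mt- share reached an adjusted p under 0.05 by the permutation test under another setting or with a library left out. The smallest p possible with all libraries was 0.0286 before adjustment, and leaving a library out does not lower it. So few libraries left the test little room to pass, and this result cannot show that the share was stable. Whether the direction was kept was not compared. Small differences can change sign, such as the 0.0123 points between day 21 and day 7 in macrophages, where the day 7 libraries spanned 2.54 to 3.07%. In single named members, 54 of 789 calls were lost under another setting and 31 of 509 with a library left out. Causes were not tested unless the setting itself gives them. Apart from some settings of the difference between types, the share of all genes called is not given for the counts under other settings. Those counts have no background to be read against.

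Within cells of 1 cluster (a choice made after seeing the data, with fewer cells and libraries) the counts for day 3 against day 0 were 17 in stromal and 25 in endothelial cells, with medians of 0.84 in macrophages, 0.37 in stromal and 0.84 in endothelial cells. For day 7 against day 3 they were 8 in macrophages (median -0.15, reversed) and 7 in stromal cells (-0.0170). For day 21 against day 7 they were 22 in macrophages, 7 in stromal (median -0.0528) and 22 in endothelial cells (-0.25). For day 21 against day 0 they were 7 in macrophages (0.26), 0 in stromal (0.0527) and 7 in endothelial cells. Of single members, Ndufa12 reversed in macrophages from day 3 to day 7 (-0.0768), and in endothelial cells Atp5j and Ndufb10 reversed at day 3 (0.50 and 0.25) and day 21 (0.0306 and 0.0756) against day 0.

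Thinned sums gave 32 for day 3 against day 0 in macrophages (median 0.39), a median of 0.48 there in stromal cells, 2, 17 and 10 for day 7 against day 3 in macrophages, stromal and endothelial cells, 10 and 24 for day 21 against day 7 in macrophages (-0.22) and stromal cells, 25 (0.33) and 19 for day 21 against day 0, and 13 for the difference between types. Without scaling factors the medians were 0.36, 0.40 and 0.37 for day 3 against day 0, 0.0891, -0.0487 and -0.00858 for day 7 against day 3 (10 called in endothelial cells), -0.23 for day 21 against day 7 in macrophages, and 0.24 and 0.11 for day 21 against day 0 in macrophages and stromal cells (30 and 26 called). With only the 2 groups in the fit the counts were 36 and 22 there and 8 for day 7 against day 3 in endothelial cells, with a median of 0.45 for day 3 against day 0 in macrophages. Without a filter, day 7 against day 3 gave 8 in macrophages and 7 in endothelial cells, and DESeq2 gave 29 in macrophages. With each group clustered by itself, the peptide gave 10 in stromal cells, the difference between types 37, and the medians were 0.70 for day 3 against day 0 in macrophages and -0.16 for day 7 against day 3 in stromal cells.

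With a library left out, the count ranged from 12 to 22 (12 without day 0 replicate 2 or day 21 replicate 4) for day 21 against day 0 in endothelial and 23 to 47 in stromal cells. For day 21 against day 7 it ranged from 22 to 36 in endothelial cells (22 without day 21 replicate 3) and 28 to 49 in macrophages. For day 7 against day 3 it ranged from 8 to 17 in endothelial cells (8 without day 3 replicate 3, 11 without day 7 replicate 2) and 6 to 13 in macrophages, with medians of -0.19 to -0.11 in endothelial and -0.17 to -0.11 in stromal cells. For the difference between types it ranged from 20 to 36.

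With the replicate block the counts in macrophages, stromal and endothelial cells were 67, 73 and 54 for day 3 against day 0, 11, 34 and 13 for day 7 against day 3, 44, 39 and 32 for day 21 against day 7, 56, 43 and 18 for day 21 against day 0 and 0 with the peptide. The libraries share only a number. Depth limits the day 0 macrophages (69 to 135 cells a library) and the day 3 endothelial cells (31 a library), where small changes could be missed.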
